A study of Mus musculus with 6 samples.

Results

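The genes described here take up, make and break down GABA, the main inhibitory transmitter of the brain, and they were compared between sorted cells of Sox9 KO and control olfactory bulbs. They were chosen by gene symbol and comprise 9 of the 24421 genes listed in the deposited tables: the transporters Slc6a11, Slc6a12 and Slc6a13, the synthetic enzymes Gad1 and Gad2, the degrading enzymes Abat and Aldh5a1, the amine oxidase Maob and the anion channel Best1. The libraries came from 6 adult male mice labelled C57BL/6, with 3 controls (C57BL/6J in the series text, Sox9+/+ in the study's methods) and 3 Sox9 KO mice (Sox9fl/fl). Both groups received AAV-GFAP-iCre-P2a-TurboRFP in the olfactory bulb, a virus in which the astrocytic GFAP promoter drives Cre recombinase and the red fluorescent protein TurboRFP, so the controls also carry Cre but have no floxed allele. TurboRFP+ cells were sorted 4 weeks after injection, and since they went straight into lysis buffer, the study checked their purity by cell type markers in the RNA-seq data and not by a second sort.

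Astrocytes clear GABA from the space around synapses through sodium-coupled transporters of the Slc6 family and degrade it in their mitochondria, where Abat turns it into succinic semialdehyde and Aldh5a1 oxidises that to succinate. Most GABA is made from glutamate by the decarboxylases Gad1 (GAD67) and Gad2 (GAD65) in inhibitory neurons, while astrocytes can also make it from the polyamine putrescine by a route that needs Maob. The olfactory bulb is rich in GABAergic granule and periglomerular interneurons.

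Values are normalized counts, which are reads on a gene divided by 1 size factor per library. The reads on genes ran from 18242129 to 86906527 per library, 1 read was worth 0.395 to 1.58 normalized counts, and 17734 to 18625 genes were above 0. Sox9 stood at 5185, 6562 and 4921 normalized counts in control replicates 1, 2 and 3 and at 52.6, 64.3 and 57.7 in the KO replicates, so every library matched its label. Log2 fold changes are KO over control on log2(normalized count + 1), with the standard error (SE) after ±, and p-values are from limma, adjusted over the 18413 genes tested. A gene was called at an adjusted p under 0.05 and a change of at least 1.5-fold.

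Markers of astrocytes, the cells that the virus was designed for, were present and all above 0 in every library, but all 10 were called lower in KO, led in level by Slc1a3 and Aqp4, with log2 fold changes from −5.25 to −2.72. In bulk libraries fewer cells of a type and less RNA per cell cannot be told apart, here and for every gene that follows. Summed per kb of exon, the astrocyte markers came to 42088 to 46176 in the controls and to 3779 to 4161 in KO. The microglia and macrophage markers came to 30662 to 36504 and to 107070 to 129210 by the same measure. Such sums depend on which genes are listed, so each is read across the libraries and not against the other. Markers of other cells were called as follows, lower and higher in KO, of the list: leptomeningeal cells and fibroblasts 3 and 1 of 9, mural cells 2 and 0 of 6, endothelial cells 3 and 1 of 6, border macrophages 3 and 1 of 5, oligodendrocytes 5 and 0 of 5, their precursors 4 and 0 of 4, olfactory ensheathing cells 3 and 0 of 4, ependymal cells 1 and 0 of 3, and mitral and tufted neurons 2 and 0 of 5, with 1 gene of the last list at 0 in a library.

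All 9 genes passed the filter on low values and were tested. In Sox9 KO 7 were called lower (Slc6a11, Slc6a12, Gad1, Gad2, Abat, Aldh5a1 and Maob), 1 was called higher (Best1) and 1 was not called (Slc6a13). Of all genes tested, 28.8% were called lower and 22.2% higher. The 7 lower genes were lower in every KO library than in any control, as were 34.7% of all genes, and Best1 was higher in every KO library, as were 32.4%. The median log2 fold change of the 9 genes was −3.13, against −0.07 for all genes tested. The ranges of the 6 libraries are set out gene by gene in the plot of normalized counts by library.

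**Figure D1:**
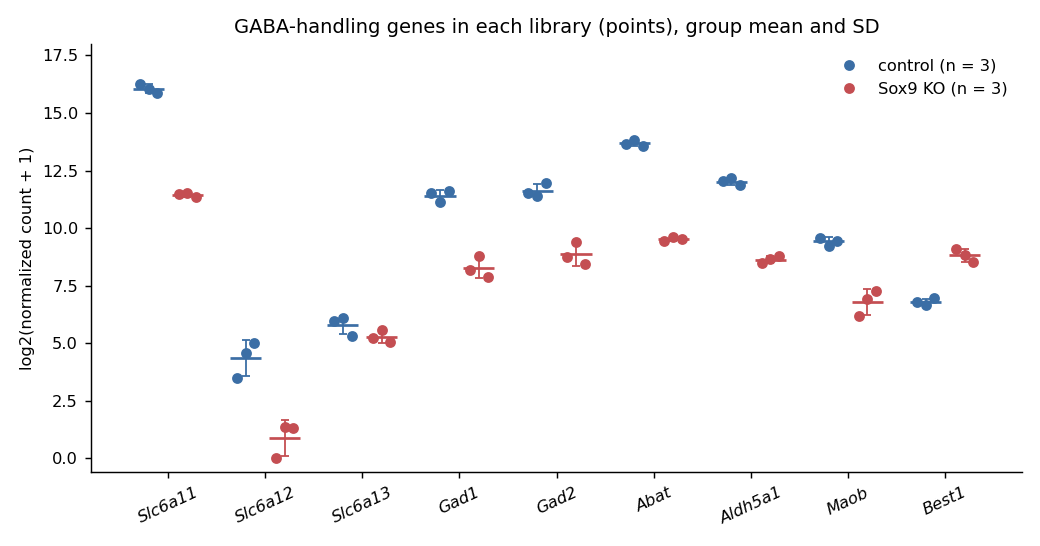
Normalized counts of the 9 genes on the scale log2(normalized count + 1) (y axis), with a point per library, the group mean and SD, controls in blue and Sox9 KO in red. The groups lie apart in every gene but Slc6a13, and Best1 is the gene in which the KO libraries, at 366 to 548, lie above the controls, at 102 to 123.

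Slc6a11 encodes the GABA transporter GAT-3, which is found on astrocyte processes, and per kb of exon it was the most abundant of the 9 genes in both groups. It lies on chromosome 6 from 114131241 to 114249952 on the plus strand (GRCm38, GENCODE M21). The controls held 77486, 68620 and 60005 normalized counts and the KO libraries 2830, 2932 and 2634. The KO values lay within a narrow band far below the lowest control, with means of 68704 ± 8741 and 2799 ± 152 (SD, n = 3 each). Slc6a11 fell by 4.61 on the log2 scale (SE 0.11, 95% interval −4.85 to −4.37, adjusted p = 2.5e-09), or 24.4-fold, and 0.885% of the genes tested had a lower fold change. These values rest on 1734 to 7428 reads in a KO library. Ranked by normalized counts per kb of exon among the 23350 genes with a known length, Slc6a11 stood 29th in control and 2187th in KO.

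Slc6a12, the betaine/GABA transporter BGT1, and Slc6a13, the GABA transporter GAT-2, lie next to each other on chromosome 6, from 121343076 to 121365775 and from 121300227 to 121337733, both on the plus strand. Slc6a12 was close to the limit of detection: the control libraries held 7, 33 and 20 reads of it and the KO libraries 0, 4 and 1. Those reads equal 10.2, 22.7 and 31.5 normalized counts in control and 0, 1.58 and 1.52 in KO, so the controls varied widely among themselves, and the lowest of them still lay above the highest KO library. The log2 fold change was −3.46 ± 0.67 (adjusted p = 0.0011). Its size depended on the pseudocount, with −3.96 at 0.5 and −2.06 at 5, while the call held at both.

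Slc6a13 stood at 61.4, 66.8 and 39.4 normalized counts in the controls and at 36.7, 46.2 and 31.9 in KO. Its groups overlapped, since KO replicate 2 lay above control replicate 3. The means were 55.8 ± 14.5 and 38.3 ± 7.27 (SD, n = 3 each), and the log2 fold change of −0.51 had a 95% interval from −1.28 to 0.25 (adjusted p = 0.218), which leaves room for a fall of more than 1.5-fold. Under quantile normalization its sign turned, to 0.37, again with no call. Within each library the ratio of Slc6a11 to Slc6a13 was 1263, 1028 and 1523 in the controls and 77.1, 63.5 and 82.6 in KO, a difference of −4.09 in the mean log2 ratio (two-sided exact permutation p = 0.1, the smallest that 3 libraries against 3 allow, and 0.1 after adjustment over the 3 ratios tested). Per kb of exon, Slc6a11 made up 99.8% ± 0.0325 of the summed level of these 3 transporters in the controls and 97.6% ± 0.330 in Sox9 KO, a description chosen after the values were seen.

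Gad1 (chromosome 2, 70553072 to 70602014, plus strand) and Gad2 (chromosome 2, 22622205 to 22693874, plus strand) make GABA from glutamate in inhibitory neurons. Gad1 had 2917, 2239 and 3091 normalized counts in the controls and 288, 443 and 235 in KO. Gad2 had 2967, 2681 and 3982 in the controls and 434, 665 and 345 in KO. In both genes KO replicate 2 was the highest KO library and still lay far under the lowest control. Gad1 went from 2749 ± 450 to 322 ± 108 (SD of 3 libraries), or −3.13 ± 0.22 on the log2 scale (adjusted p = 6.6e-07). For Gad2 the means were 3210 ± 683 and 481 ± 165, with −2.77 ± 0.22 on the log2 scale (adjusted p = 2.2e-06). The count of Gad1 per count of Gad2 was 0.983, 0.835 and 0.776 in the controls and 0.664, 0.666 and 0.683 in KO, without overlap (difference of −0.36 in the mean log2 ratio, two-sided exact permutation p = 0.1, adjusted p = 0.1 over 3 ratios).

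Markers of neurons were present in these sorted cells and moved with Gad1 and Gad2. All 9 markers of olfactory bulb interneurons, led in level by Meis2 and Synpr, and all 8 general neuron markers, led by Snap25 and Syt1, were called lower in KO. The interneuron markers summed to 7557 to 8433 normalized counts in the controls and 614 to 996 in KO, with KO replicate 2 the highest KO library there too, and the general neuron markers to 12970 to 17083 and 2191 to 3825. No marker of either list was at 0. Per 1000 counts of these interneuron markers, Gad1 was 344 ± 41.4 in the controls and 402 ± 96.8 in Sox9 KO, and Gad2 was 401 ± 62.6 and 600 ± 152, with overlapping groups in both. Per 1000 counts of the general neuron markers, Gad1 was 187 ± 18.2 and 118 ± 11.1 and Gad2 was 217 ± 14.1 and 175 ± 18.8, lower in every KO library in both, so the picture depended on the list. These groupings were the same without Meis2 or Snap25, the leading markers. Slc32a1, the carrier that loads GABA into synaptic vesicles, fell from 295 ± 42.0 to 47.2 ± 18 normalized counts (−2.67 ± 0.29 on the log2 scale, adjusted p = 1.7e-05). It was higher in every KO library relative to the interneuron markers (37.0 ± 3.57 and 58.1 ± 13.2) and lower in every one relative to the general neuron markers (20.1 ± 1.57 and 17.0 ± 0.956). The part of the neuronal transcripts in the values of Gad1 and Gad2 was not tested.

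Abat, the GABA transaminase, begins the breakdown of GABA and lies on chromosome 16 from 8513429 to 8621568 on the plus strand. It stood at 12782, 14554 and 12334 normalized counts in the controls and at 700, 784 and 741 in KO. All KO libraries were far below the controls and close to each other, with means of 13224 ± 1174 and 742 ± 42.3 (SD, n = 3 each), and Abat fell by 4.15 on the log2 scale (SE 0.10, adjusted p = 2.5e-09). Aldh5a1, the succinic semialdehyde dehydrogenase that completes the breakdown, lies on chromosome 13 from 24907579 to 24937661 on the minus strand. It had 4197, 4595 and 3753 normalized counts in the controls and 356, 400 and 438 in KO, with a log2 change of −3.39 ± 0.12 (adjusted p = 1.2e-08). Neither enzyme had a KO library near its controls. Aldh5a1 overlaps the non-coding gene 9330162012Rik, which stood at 57.4 ± 14.6 normalized counts in the controls and at 8.67 ± 1.95 in Sox9 KO, few beside those of the enzyme. Whether the counting used strand is not stated in the sources at hand.

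The ratio of the synthetic enzymes to Abat was higher in KO. Gad1 and Gad2 together, per kb of exon, were 0.537, 0.399 and 0.680 of Abat in the controls and 1.23, 1.69 and 0.936 in KO, so that every KO library lay above every control, while in KO replicate 3 Abat still exceeded their sum. This ratio was chosen after the values were seen and was not tested.

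Maob, monoamine oxidase B, lies on chromosome X from 16709282 to 16817366 on the minus strand and takes part in the route from putrescine to GABA. It stood at 767, 603 and 697 normalized counts in the controls and at 71.5, 120 and 155 in KO. The KO libraries varied more among themselves than those of Abat did, and all lay below the controls. The means were 689 ± 82.5 and 115 ± 41.9 (SD, n = 3 each), with −2.63 ± 0.26 on the log2 scale (adjusted p = 9.2e-06). Its fall was smaller in value than that of Abat. Per count of Abat it was 0.0600, 0.0414 and 0.0565 in the controls and 0.102, 0.152 and 0.209 in KO, a difference of 1.51 in the mean log2 ratio (two-sided exact permutation p = 0.1, adjusted p = 0.1 over 3 ratios).

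Best1, bestrophin-1, is a calcium-activated anion channel through which astrocytes can release GABA, and it was the 1 gene called higher. It lies on chromosome 19 from 9985174 to 10001633 on the minus strand. The controls held 110, 102 and 123 normalized counts and the KO libraries 548, 463 and 366. Even the lowest KO library lay well above the highest control, with means of 111 ± 10.7 and 459 ± 91.0 (SD, n = 3 each). The log2 fold change was 2.02 ± 0.20 (95% interval 1.58 to 2.45, adjusted p = 8.3e-06), and 96.5% of the genes tested had a lower one. Best1 was counted with 75 to 148 reads in a control and 241 to 1172 in a KO library.

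The genes on either side of Best1 also rose. Fth1, the ferritin heavy chain, ends 75 bases from the 3′ end of Best1 on the opposite strand and went from 43582 ± 5075 to 73160 ± 9885 normalized counts (log2 fold change 0.75 ± 0.14). Rab3il1, which starts 35 bases away on the opposite strand, went from 1314 ± 177 to 5100 ± 358 (1.96 ± 0.11). Per 1000 counts of Fth1, Best1 was 2.56 in control and 6.27 in KO, and per 1000 counts of Rab3il1 it was 84.8 and 90.0. By these ratios of group means, which carry no spread over the libraries, Best1 kept pace with Rab3il1 but not with Fth1. These neighbours were named after their values were seen, and whether reads of either were counted for Best1 was not tested.

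Markers of microglia and macrophages rose in the same libraries as Best1. All 9 on the list, led in level by Csf1r, were called higher (median 1.95 on the log2 scale), and their sum ran from 108880 to 129890 normalized counts in the controls and from 376500 to 457070 in KO. None was at 0. Per 1000 of these marker counts Best1 was 0.957 ± 0.125 in the controls and 1.08 ± 0.145 in Sox9 KO (SD of 3 libraries), with overlapping groups. On the separate list of border macrophages, 3 of 5 markers were called lower in KO and 1 higher. The part of microglia and macrophages in the rise of Best1 was not tested. The genes whose pattern over the 6 libraries lay nearest to that of Best1 were Icosl, Kcnk6 and Cd80, with a root mean square difference of 0.034, 0.068 and 0.089 on the log2 scale. For Gad1 they were Atp2b2, Nrip3 and Nrxn3, with 0.106, 0.111 and 0.116. For Slc6a11 they were Slc38a3, a glutamine transporter, Ppap2b and 2610100L16Rik, with 0.05, 0.091 and 0.093.

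**Figure D2:**
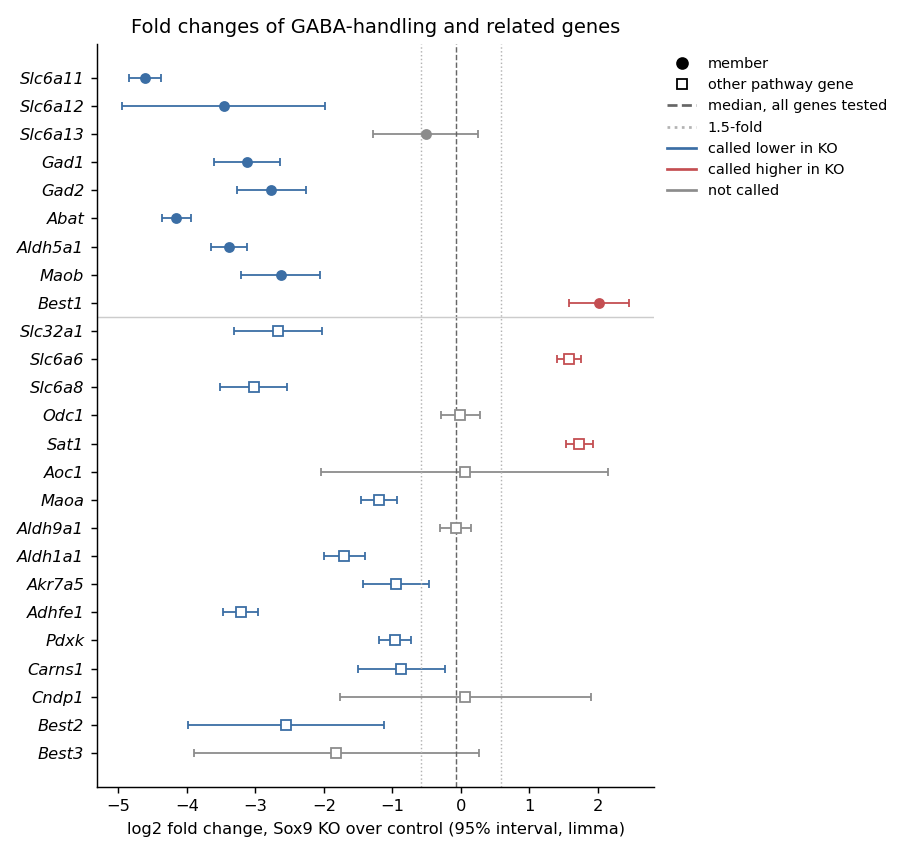
Log2 fold change of Sox9 KO over control (x axis) with its 95% interval from limma for the 9 genes (filled circles) and 16 related genes (open squares), coloured by call, with dotted lines at 1.5-fold and a dashed line at the median of all genes tested. The 7 lower genes run from −4.61 for Slc6a11 to −2.63 for Maob, the interval of Slc6a13 spans 0, and Best1 lies at 2.02.

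Sequences upstream of the start are shown for Slc6a11 and Aldh5a1, a pair of genes that fell, and for the short stretch between the starts of Best1 and Rab3il1, which rose together. They are from RefSeq (GRCm38.p6), read 5′ to 3′ on the strand of the gene, with each CpG in capitals. RefSeq entries were matched for 7 of the 9 genes, not for Abat and Maob.
Slc6a11, chr6:114130991-114131240, plus strand: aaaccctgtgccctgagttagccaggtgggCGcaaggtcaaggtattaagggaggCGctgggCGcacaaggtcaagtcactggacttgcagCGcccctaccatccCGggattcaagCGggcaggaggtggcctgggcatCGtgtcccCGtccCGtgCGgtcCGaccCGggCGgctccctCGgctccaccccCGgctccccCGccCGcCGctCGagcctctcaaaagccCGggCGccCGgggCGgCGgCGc
Aldh5a1, chr13:24937662-24937911, minus strand: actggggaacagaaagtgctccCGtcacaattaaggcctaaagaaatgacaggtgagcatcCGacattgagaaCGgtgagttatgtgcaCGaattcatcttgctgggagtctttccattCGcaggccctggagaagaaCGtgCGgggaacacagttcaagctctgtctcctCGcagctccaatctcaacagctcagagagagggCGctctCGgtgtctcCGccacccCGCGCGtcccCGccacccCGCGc
Best1 to Rab3il1, chr19:10001634-10001668, minus strand: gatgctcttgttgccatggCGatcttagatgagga

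The 250 bases upstream of Slc6a11 hold 25 CpG and a GC content of 71.2%, and 89.3% of the 32851 promoter entries have fewer CpG. Those of Aldh5a1 hold 17 CpG and a GC content of 57.2%. Best1 holds 1 CpG in 250 bases, and 7.87% of entries have fewer, against a median of 6 over all entries. Searched on both strands in these upstream windows, the SOX-type motifs AACAATG and AACAAAG were found in 0 of the 13 entries of these genes, and in 3.29% and 5.03% of all entries, with 8.12% holding either. The 13 entries came from 7 genes, with overlapping windows for Slc6a12, so 0 of 13 cannot be told from the share of 8.12%. A window this short bears only on its own letters.

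Compared per kb of exon, the levels of the 9 genes spanned from 13605 ± 1731 normalized counts per kb for Slc6a11 to 7.04 ± 3.51 for Slc6a12 in control (SD, n = 3). The control order below Slc6a11 was Abat (1707 ± 152 per kb), Aldh5a1 (741 ± 74.6), Gad2 (546 ± 116), Gad1 (360 ± 58.9), Maob (247 ± 29.6), Best1 (43.2 ± 4.14), Slc6a13 (19.2 ± 4.99) and Slc6a12. Of neighbours in that order, Aldh5a1 and Gad2 had overlapping libraries and the others did not. In KO Slc6a11 was still the highest, at 554 ± 30.0 per kb, but Best1 came next at 178 ± 35.3, followed by Abat (95.8 ± 5.45), Gad2 (81.9 ± 28.1), Aldh5a1 (70.4 ± 7.19), Gad1 (42.2 ± 14.2), Maob (41.4 ± 15.0), Slc6a13 (13.2 ± 2.5) and Slc6a12 (0.338 ± 0.293). Best1 thus moved from the 7th to the 2nd place. Its KO level of 178 per kb was still below the control level of each gene it changed places with, all of which fell. In the KO order Abat and Gad2, Gad2 and Aldh5a1, and Gad1 and Maob overlapped.

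**Figure D3:**
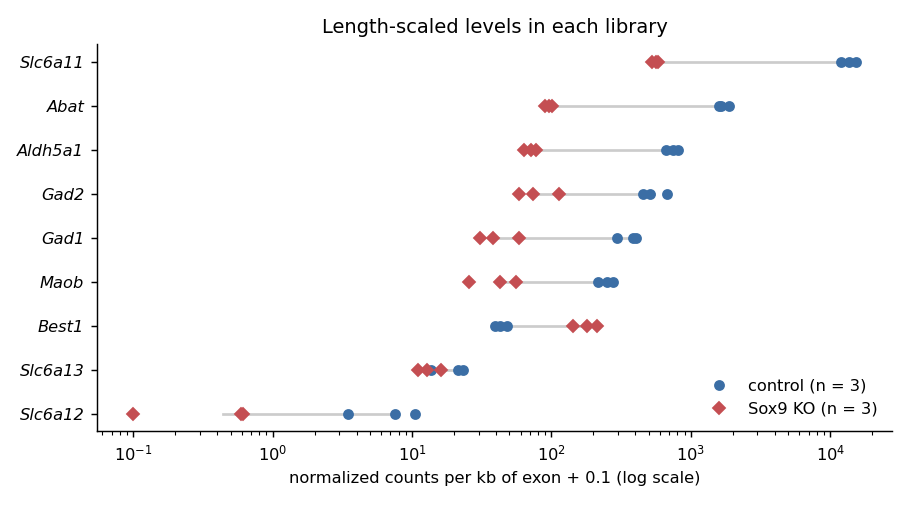
Level of the 9 genes in normalized counts per kb of exon plus 0.1 (x axis, log scale), with a point per library for control and Sox9 KO and a grey line that joins the group means. Slc6a11 is the highest in both groups. Best1 rises from 43.2 to 178 per kb, while Abat, Aldh5a1, Gad2, Gad1 and Maob fall from above 178 to below it.

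Set against the astrocyte markers, the genes of GABA uptake and breakdown went different ways. Per 1000 counts of the astrocyte list, Slc6a11 was 257 ± 21.7 in control and 103 ± 8.35 in KO, 2.5-fold lower and without overlap. Abat was 49.6 ± 3.61 and 27.2 ± 1.3, 1.83-fold lower and also without overlap. Aldh5a1 was 15.7 ± 1.06 and 14.6 ± 0.936, and Maob was 2.59 ± 0.323 and 4.19 ± 1.38 (SD, n = 3 each), both with overlapping groups. Without Slc1a3, the astrocyte marker of highest mean, Slc6a11 and Abat were 2.08-fold and 1.52-fold lower, again without overlap, and Aldh5a1 (20.8 ± 1.42 and 23.2 ± 0.598) and Maob (3.44 ± 0.43 and 6.56 ± 1.65) were higher in every KO library.

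Slc6a13, which is expressed in leptomeningeal cells, stood at 8.27 ± 1.99 per 1000 counts of the leptomeningeal list in control and 16.4 ± 3.47 in Sox9 KO (SD of 3 libraries), but this rested on 1 marker. Islr made up most of the list's sum in the controls and fell from 4781 ± 581 to 611 ± 89.7 normalized counts, while 5 of the 9 markers were not called. The sum ran from 6382 to 7219 in the controls and from 2299 to 2422 in Sox9 KO, and without Islr from 1682 to 2347 and from 1603 to 1802, with overlap. Relative to the list without Islr, Slc6a13 was 28.5 ± 5.14 in control and 22.2 ± 4.14 in KO, in the other direction and with overlapping groups. The lists without their leading marker were tried after the data had been seen. These ratios describe the libraries and were not tested, and they depend on which markers were listed.

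**Figure D4:**
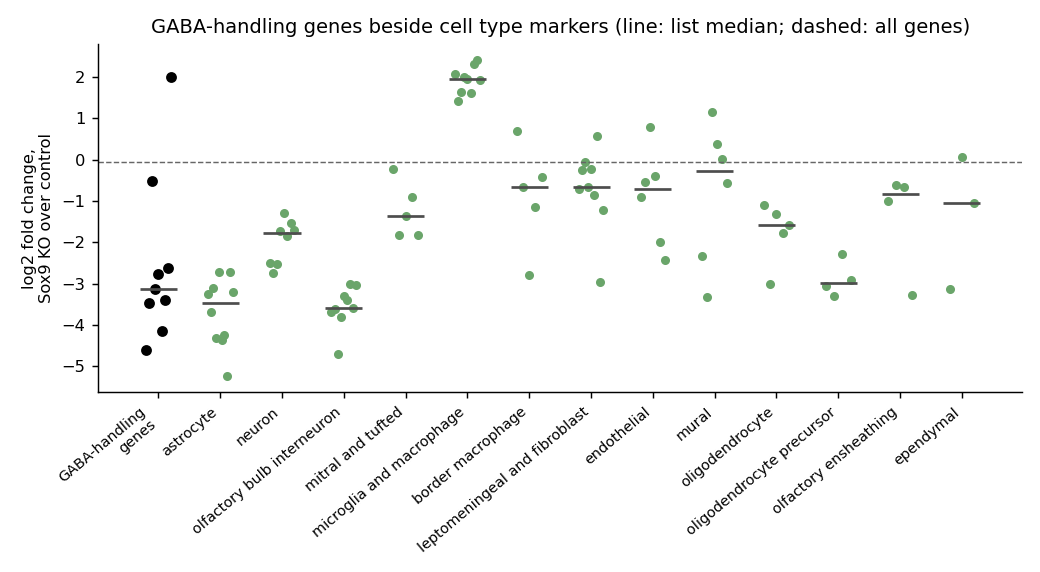
Log2 fold change of Sox9 KO over control (y axis) for the 9 genes and the genes of 13 marker lists (x axis), with a point per gene, a bar at the median of each list and a dashed line at the median of all genes tested. The medians of the markers of astrocytes (−3.48), interneurons (−3.58) and oligodendrocyte precursors (−2.98) lie in the range of the 7 lower genes. The microglia and macrophage markers (median 1.95) lie around Best1.

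**Figure D5:**
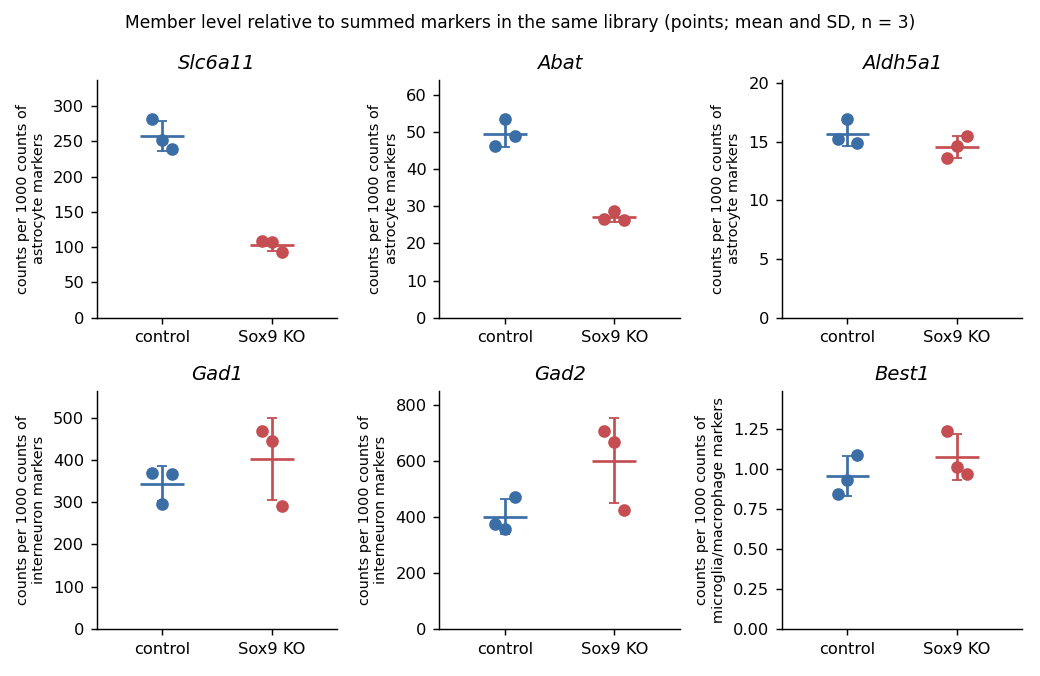
Normalized counts of 6 genes per 1000 counts of the summed markers of 1 cell type (y axis), with a point per library and the mean and SD of 3 libraries. Slc6a11 and Abat stay lower in KO relative to the summed astrocyte markers, some of which fell more than these genes. The groups overlap for Aldh5a1, for Gad1 and Gad2 relative to interneuron markers, and for Best1 relative to microglia and macrophage markers. Each is on its full list.

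Of 16 further genes of GABA and putrescine handling, 9 were called lower, 2 higher and 5 were not called. Over all genes tested, 28.8% were called lower and 22.2% higher. The median of the 16 genes was −0.96 on the log2 scale. Among the transporters related to the GABA carriers, Slc6a8, which carries creatine, fell by 3.03 on the log2 scale. Slc6a6, which carries taurine, rose instead, from 4016 ± 90.5 to 11967 ± 278 normalized counts (1.57 on the log2 scale). The Slc6 family therefore did not move as 1 group.

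The putrescine route was mixed. Odc1, which makes putrescine, averaged 4922 normalized counts in the controls and 4941 in Sox9 KO, a change of −0.01 on the log2 scale. Sat1, which acetylates polyamines, rose from 4930 to 16296 (1.73), while Maoa fell from 917 to 400 (−1.20) and the aldehyde dehydrogenase Aldh1a1 fell by 1.70 on the log2 scale. Aldh9a1, which can oxidise the aminobutyraldehyde of this route, was not called, at −0.07. Aoc1, a diamine oxidase, was too low to measure a change, with 1, 2 and 0 reads in the control libraries and 0, 14 and 0 in those of KO (95% interval −2.04 to 2.15 on the log2 scale).

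Around the breakdown of GABA, Adhfe1, which turns γ-hydroxybutyrate back into succinic semialdehyde, fell from 4229 to 455 normalized counts (−3.22 on the log2 scale). Akr7a5, which reduces succinic semialdehyde, fell by 0.95. Pdxk, a kinase that supplies pyridoxal phosphate, the cofactor of Gad1, Gad2 and Abat, fell from 4032 to 2061 (−0.97). Carns1, which makes homocarnosine from GABA and histidine, fell by 0.87 (adjusted p = 0.0225), and Cndp1, a dipeptidase that splits it, had at most 4 reads in a library, too few to measure a change (95% interval −1.77 to 1.89). Of the other bestrophins, Best2 fell by 2.55 on the log2 scale from few reads (13, 18 and 22 in the controls, 1, 6 and 4 in KO), and Best3 was not called, at −1.82 (adjusted p = 0.116). Best1 was the only bestrophin of the 3 that was higher in KO.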

How the data were processed

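RNA from TurboRFP+ cells of 3 control and 3 Sox9 KO mice was sequenced, with 1 library per mouse. The authors aligned reads to mm10 by STAR 2.5.0a, took gene counts by GenomicFeatures and GenomicAlignments, and used DESeq2 1.20.0 for normalization (versions from the submitters' processing notes). Which annotation and strand setting they counted with is not stated in the sources at hand. The deposited signal values carry the name RPM, yet each is a whole number of reads over a library-wide size factor (100% of values within 0.01 read). In KO replicate 1 the value of 1 read is close to 1 and was taken from the full digits. The pseudocount and filter had been chosen for RPM and were kept.

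Genes with a mean of at least 1 (18413 of 24421, 6008 left out) were fitted on log2(value + 1) with limma 3.58.1 (R 4.3.3), with a variance trend, without a replicate block, two-sided, with Benjamini-Hochberg adjustment over all genes tested. Differences between 2 genes within a library were tested by exact permutation. Ratios to a marker list were also taken without its marker of highest mean. Alternatives changed the pseudocount (0.5 or 5), the filter (none, or a mean of at least 10), the scaling, the trend, the block or the tool (edgeR 4.0.16 or DESeq2 1.42.0 on the recovered reads), used unadjusted p-values, or left out each library. The scripts were tested on simulated data. Lengths and coordinates are from GENCODE M21 and promoters from RefSeq. Depth sets the precision of low values, and intervals cover these libraries alone.

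The 9 genes, the 16 related genes and the marker lists were chosen with earlier results of these data known, and 2 genes first listed among the related genes and markers are not reported here. Named were all of these 9 and 16 genes, up to 2 markers of highest mean in the lists that a result turns on, and the 3 genes nearest in pattern for 3 of the 9 (Slc6a11, Gad1 and Best1). Slc4a4 and the astrocyte markers that fell more than Abat were also named, after the values were seen. The listed symbols include 27 that a spreadsheet turned into dates.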

Additional observations from a re-analysis of the deposited data

How the results depend on the processing

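The counts of the 9 genes, 7 called lower and 1 called higher, came out the same under all 18 alternatives. Of the 16 related genes, 7 to 9 were lower and 2 higher, with 7 under quantile normalization. No called gene among these changed direction. The log2 fold change ranged from −5.36 to −4.52 for Slc6a11, from −4.29 to −2.06 for Slc6a12 and from 1.69 to 2.51 for Best1. Quantile normalization ended the calls of Akr7a5 (−0.33, adjusted p = 0.177) and Carns1 (−0.02), and Carns1 also lost its call without control replicate 2 or 3 or KO replicate 1 or 2. Best3 was called without KO replicate 1 (−2.90, adjusted p = 0.0116). The cause was not tested. The median of all genes was −0.07, and −0.29 with equal totals, −0.37 with equal totals without Rn45s and 0.19 under quantile normalization. Of all calls, 56.4% were lower, and 67.8%, 71.5% and 43.5% under these scalings. The labels do not say that replicate numbers pair the samples. Same-numbered libraries had correlations of −0.0513, −0.0134 and −0.0130. These used values centred within each group, so they cannot settle whether the samples were paired. With a replicate block 7 of the 9 genes were called lower and 1 higher, with 5227 and 4048 calls over all genes. Depth limits the genes with few reads (Slc6a12, Slc6a13, Best2, Best3, Cndp1 and Aoc1). Leaving out 1 library moved Aoc1 between −0.85 and 0.50 and Cndp1 between −0.58 and 0.50.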
